A study of Mus musculus with 24 samples.

Results

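Among 24 arrays of the mouse leukaemia line DA1-3B, the 4 arrays of cells transfected with both fragments of the NF-kB subunit p65/RelA (the group labelled p1-361+p363-549, sample numbers 6, 12, 18 and 24) were set against the 4 arrays of cells transfected with a plasmid without insert (VOID, sample numbers 1, 7, 13 and 19), chosen by the transfection label alone. DA1-3B is a Bcr-Abl positive line from C3H eOuJ mice, so every group carries the oncogene, and the labels name no drug. The other transfections were the amino-terminal fragment alone (p1-361), the carboxy-terminal fragment alone (p363-549), full-length p65 (WT) and the D361E mutant, which the design text calls non-cleavable. The treatment text starts the second fragment at residue 362, 1 residue before the transfection label does. Neither says how long after transfection RNA was taken, what share of the cells took up plasmid, or whether a group's arrays are of independent cultures; the p-values therefore cover only the variation among the samples at hand, part of which may be technical.

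p65 is the main activating subunit of NF-kB. Its amino-terminal Rel homology domain binds DNA, dimerises with p50, p52, c-Rel or RelB and is held in the cytoplasm by IkB proteins, while its carboxy-terminal part carries the transactivation domains. NF-kB induces genes of several of its own subunits and of its own inhibitors, together with cytokines, chemokines and survival genes, while BCR-ABL, a tyrosine kinase, signals through STAT5 among others. The design asks which genes are regulated by whole p65, by the mutant and by the fragments. Here the measure was relative signal, an array's background-corrected probe signal divided by that array's 75th percentile. Differences are given on the log2 scale as p1-361+p363-549 minus VOID ± standard error, and a gene was called when limma's Benjamini-Hochberg adjusted p was under 0.05. Per-array values are given in the order of replicates 1 to 4, so the fourth p1-361+p363-549 value is always the array numbered 24.

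No spot was saturated on any array, and 49.4% to 55.5% of spots were well above background. The 75th percentile of signal was 1065.2, 1213.6, 846.7 and 1019.5 on the p1-361+p363-549 arrays and 764.5, 924.1, 665.7 and 774.5 on the VOID arrays, so the first group was brighter before scaling. Over the 200 genes that best separated the groups on the arrays outside its own set of 6 consecutive sample numbers, each array was correlated with the mean of its own group's other arrays and with the means of the other groups, across genes and as a description only. Replicates 1 to 3 of p1-361+p363-549 correlated with their own group at 0.95, 0.91 and 0.74, but the array numbered 24 did so at -0.09 and reached 0.71 with p1-361. The array numbered 23, labelled p363-549, correlated at 0.97 with p1-361+p363-549 and at -0.55 with its own label, and the array numbered 22, labelled p1-361, at 0.78 with p363-549 and at 0.14 with its own. These 3 arrays go against their labels, so results are given with all arrays and without the array numbered 24, and, where other fragment groups enter, also without all 3. They were picked out on the same values that are compared, so results without them are a description and no separate test. VOID arrays correlated with their own group at 0.87 to 0.95. Mast cell, globin, erythroid and myeloid transcripts were measured side by side in these cells.

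With all 8 arrays, 668 of 14991 genes (4.46%) were called, 293 higher (1.95%) and 375 lower (2.50%) in cells with both fragments. The falls were larger than the rises: the median change was 0.82 among genes called higher and -1.53 among genes called lower, with 30 rises and 145 falls over 2 log2 units, while the median of all genes was -0.01. The 4 arrays of one group lay wholly apart from the 4 of the other for 568 of the called genes and for 1513 of all genes tested (10.1%). Both groups shared 2 slides; within one of them 664 of the 668 called genes differed in the same direction as in the whole comparison, and within the other all 668 did. The same held for 54.8% and 80.3% of all genes tested; the called genes were chosen on these same arrays, so the within-slide counts are no separate test. With array brightness as a covariate, chosen after seeing the data, 320 genes were called; with slide as a block the count was 408, and with only the arrays of these 2 groups in the fit 293. Without the array numbered 24, 1054 genes (7.03%) were called, 487 higher (3.25%) and 567 lower (3.78%). Of these, 616 were the same genes with the same sign as among the 668, and 438 were added. All 668 had the same sign without that array, and 52 of them were no longer called. Without the 3 arrays 1438 genes (9.59%) were called. Leaving out another array gave fewer calls than all 8: 328 without p1-361+p363-549 replicate 1, 301 without its replicate 2, and 435, 431 and 439 without VOID replicates 2, 3 and 4. Of 92 named calls, 30 were lost on leaving out some single array: Nfkb1, Nfkb2, N4bp1, Ppbp, Fam160a1, Lta, Tnf, Il10rb, Tlr2, Bcl2, Oas2, Mx2, Isg20, Gbp3, Gbp9, Gbp7, Pdcd1lg2, Ccr7, Treml1, Lyz2, Epx, Gzmb, Cd3d, Cebpb, Btg2, Cdc25c, Idi1, Abca1, Slc17a8 and Saa3.

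All 4 NF-kB subunit genes that could be tested were called higher with all arrays, and of these Relb kept its call under all 25 alternatives. Rela, which encodes p65 itself, had relative signals of 30.7, 29, 27.6 and 28.1 on the p1-361+p363-549 arrays, against 20.2, 19, 21.8 and 22.5 on the VOID arrays. The groups did not overlap and the 4 fragment arrays, number 24 included, lay close together; the difference was 0.47 ± 0.10 (adjusted p = 0.00624). The probe's place relative to the transfected coding parts was not examined here, so RNA from the plasmids and from the cells' own gene cannot be told apart. Relb, the partner of p52 in the alternative pathway, measured 2.45, 2.59, 1.83 and 1.04 with both fragments and 0.545, 0.68, 0.549 and 0.486 in VOID. The lowest fragment array was number 24, still above every VOID array, and the difference was 1.73 ± 0.35 (adjusted p = 0.00531) with it and 2.01 ± 0.35 without it. Of 3 tested Relb probes, 1 showed -0.14, against 1.73 and 1.81 for the others. Nfkb2, the precursor of p52, stood at 3.16, 3.2, 1.97 and 1.92 against 1.33, 1.29, 1.2 and 1.03 in VOID, a rise of 1.04 ± 0.26 (adjusted p = 0.0231). Nfkb1, the precursor of p50, rose by 0.75 ± 0.20 (adjusted p = 0.0388), with no overlap between the groups. The call of Nfkb1 was lost under 11 of 25 alternatives (adjusted p up to 0.343) and that of Nfkb2 under 6 (adjusted p up to 0.176). That of Rela was lost under 3 (adjusted p up to 0.286). These were normexp background correction and the fits of only these 2 groups, with and without the array numbered 24. Over the 4 genes the median change was 0.90.

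The inhibitors and feedback genes of the pathway were less uniform: of 12 tested, 2 rose, 1 fell and 9 were not called, with a median of 0.23. Nfkbie, which encodes IkB-epsilon, had 2.63, 2.91, 3.11 and 1.45 with both fragments and 1.07, 1.04, 1.24 and 1.12 in VOID. Again the array numbered 24 was the lowest of its group, and the difference was 1.12 ± 0.20 (adjusted p = 0.00206). Tnip1, a ubiquitin-binding partner of A20, had 11.8, 11.3, 8.22 and 9.64 against 5.48, 4.58, 6.92 and 5.23, with no overlap and a rise of 0.88 ± 0.15 (adjusted p = 0.00143). Nfkbia, which encodes IkB-alpha, had 19.8, 13.6, 17.8 and 11.8 against 10.1, 9.1, 13.3 and 8.45. These ranges overlapped and the difference of 0.61 ± 0.29 was not called (adjusted p = 0.261). Tnfaip3, which encodes A20, differed by 0.93 ± 0.27 (adjusted p = 0.0541) with all arrays and by 1.00 ± 0.30 (adjusted p = 0.0454) without the array numbered 24. N4bp1, a ribonuclease cleaved by MALT1 in human T cells, fell by 0.54 ± 0.15 on the log2 scale (adjusted p = 0.0414). This call held under 9 of 25 alternatives and was lost on leaving out any single array of either group, with adjusted p up to 0.699 over all alternatives. Nfkbib, Nfkbiz, Nfkbid, Tnip2, Cyld, Otulin and Zc3h12a lay between -0.16 and 0.37 and were not called.

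The promoters of 3 of these genes and of Ebi3 are shown because they rose and hold the classical kappaB consensus within the 250 bases before the transcription start. Among the other named genes that rose, Ltb, Tlr2, Casp4, Isg20, Pdcd1lg2 and Ces2c hold it too and are not shown. Sequences are RefSeq's, build GRCm38.p6, on the gene's strand, and capitals mark each stretch covered by the consensus on either strand, overlapping matches being joined.
Nfkb2 promoter (chr19:46304487-46304736, plus strand): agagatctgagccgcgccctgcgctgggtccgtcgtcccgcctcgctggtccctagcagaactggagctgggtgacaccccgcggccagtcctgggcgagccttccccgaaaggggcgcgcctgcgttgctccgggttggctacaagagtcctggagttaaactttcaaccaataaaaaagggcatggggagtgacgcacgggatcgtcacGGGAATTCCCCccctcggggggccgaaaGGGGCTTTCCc
Nfkbie promoter (chr17:45555450-45555699, plus strand): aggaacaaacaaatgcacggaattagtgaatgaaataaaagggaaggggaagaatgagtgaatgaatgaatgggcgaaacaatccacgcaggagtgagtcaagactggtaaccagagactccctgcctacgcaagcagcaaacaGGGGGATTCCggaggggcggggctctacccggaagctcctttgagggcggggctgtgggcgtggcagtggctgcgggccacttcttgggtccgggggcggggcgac
Tnip1 promoter (chr11:54962941-54963190, minus strand): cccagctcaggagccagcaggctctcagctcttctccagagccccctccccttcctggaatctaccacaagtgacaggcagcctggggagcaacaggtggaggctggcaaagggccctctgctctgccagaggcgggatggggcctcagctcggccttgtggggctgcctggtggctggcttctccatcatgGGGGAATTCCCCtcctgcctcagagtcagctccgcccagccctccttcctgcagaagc
Ebi3 promoter (chr17:55952373-55952622, plus strand): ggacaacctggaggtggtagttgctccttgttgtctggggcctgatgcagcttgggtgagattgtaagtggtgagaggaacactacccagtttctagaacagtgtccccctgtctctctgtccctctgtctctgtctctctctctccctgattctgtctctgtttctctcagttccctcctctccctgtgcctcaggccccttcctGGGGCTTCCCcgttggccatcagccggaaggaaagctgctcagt
The first base of the capitals lay 39 and 11 bases before the start in Nfkb2, 106 in Nfkbie, 58 in Tnip1 and 44 in Ebi3. The consensus was present in 7.25% of all 32851 promoter windows. By gene, it was present in 31 of 217 called higher with a promoter entry (14.3%), 33 of 265 called lower (12.5%) and 932 of 9171 not called (10.2%). Among NF-kB targets that rose and had an entry, 5 of 7 held it. The share among targets that did not rise is not given, so this count does not tie the consensus to the rise. Of the inhibitors and feedback genes not called, Nfkbia, Nfkbid, Tnfaip3 and Cyld held it, and Nfkbib, Tnip2, Otulin and Zc3h12a did not. A match is a string of letters and not evidence of binding.

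**Figure D1:**
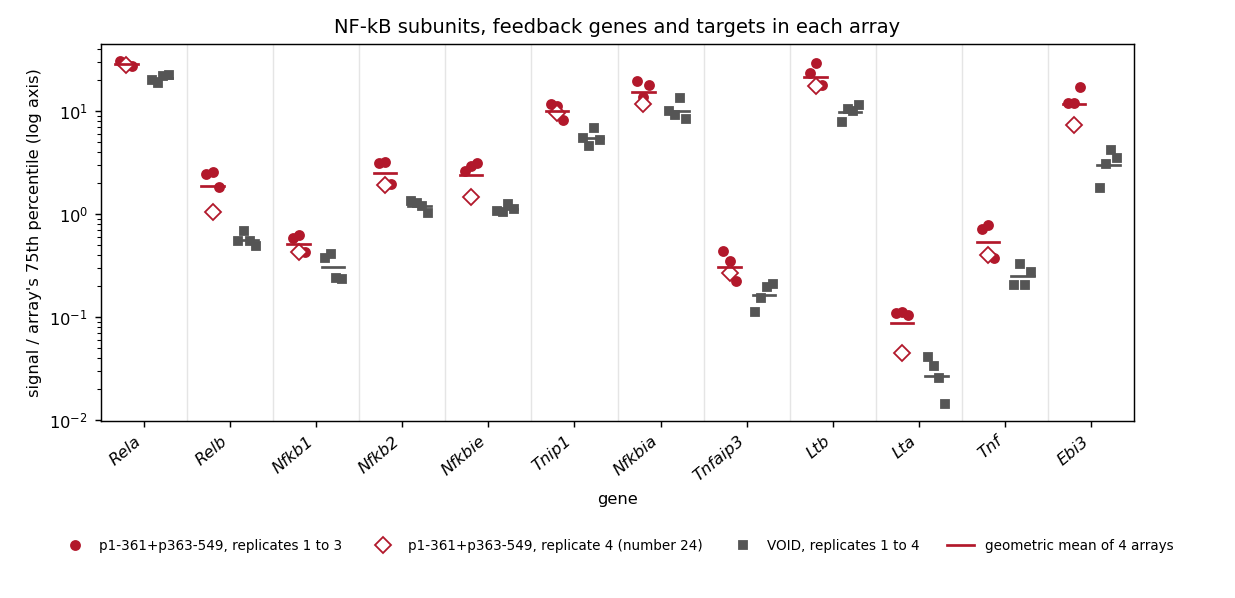
Relative signal (log axis) of 12 NF-kB genes in each array; filled circles are p1-361+p363-549 replicates 1 to 3, open diamonds its replicate 4 (sample number 24), squares the 4 VOID arrays, and bars geometric means of 4 arrays. For Rela all 4 fragment arrays (27.6 to 30.7) lie above the VOID arrays (19 to 22.5), and for Relb, Nfkbie and Ebi3 the open diamond lies between the other fragment arrays and VOID.

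Of 42 tested genes on a list of NF-kB targets, 9 rose and 3 fell, with a median of 0.25, and without the array numbered 24 the counts were 12 and 4. The 9 that rose were 3 subunits, 2 inhibitors, 3 ligands of the TNF family and Ebi3; the 3 that fell were all CC chemokines. Ebi3, a subunit of the cytokines IL-27 and IL-35, had 12, 12, 17.2 and 7.39 with both fragments and 1.78, 3.08, 4.21 and 3.53 in VOID. Every fragment array exceeded every VOID array, and the rise was 1.95 ± 0.30 (adjusted p = 5.72e-04). Ltb, which encodes lymphotoxin-beta, had 23.4, 29.5, 18 and 17.4 against 7.9, 10.4, 9.98 and 11.4, a rise of 1.13 ± 0.24 (adjusted p = 0.00639). Its partner Lta rose by 1.71 ± 0.47 (adjusted p = 0.0375), with 1 VOID array above background, and Tnf, the founding member of the family, by 1.12 ± 0.30 (adjusted p = 0.0382). The single member of the 8 tested TNF-family ligands that fell was Tnfsf14, the ligand LIGHT, with 5.65, 5.15, 5.47 and 6.8 against 14.6, 13.5, 11 and 11.8. It fell by 1.14 ± 0.20 on the log2 scale (adjusted p = 0.00163), and here the array numbered 24 lay with its group.

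Of 13 tested chemokines 2 rose and 5 fell, with a median of -0.70. The platelet chemokines Pf4 and Ppbp (CXCL4 and CXCL7) rose, whereas Ccl3, Ccl4, Ccl5, Ccl6 and Ccl17, attractants of leukocytes, fell. Pf4 had 114, 94.4, 151 and 38.8 with both fragments, against 5.73, 9.49, 10 and 6.9 in VOID. Even the lowest of these, number 24, was well above the VOID range, and the difference was 3.51 ± 0.62 (adjusted p = 0.0018). Ppbp, also on chromosome 5, had 6.79, 4.82, 16.8 and 4.99 against 0.286, 0.722, 1.37 and 0.608 (3.49 ± 0.91, adjusted p = 0.0296). Ccl3 had 0.00751, 0.00805, 0.0103 and 0.0246 against 0.114, 0.149, 0.218 and 0.128. It was well above background on all VOID arrays and on no fragment array, so only a bound can be given: it was at least 5.2-fold lower (adjusted p = 2.87e-05). Such bounds set the lowest signal still well above background on each array in place of the undetected probe. With normexp background correction Ccl3, C5ar1, Gpr183, Ctss, Vwf and Clec7a lost their calls (adjusted p 0.28 to 0.468). Il4, B3galt5, Exoc3l4, Lyz2 and Epx lost theirs too, whereas Fcer1a, Ces2b and Cpq kept theirs. Ccl4 had 0.0863, 0.0674, 0.161 and 0.817 against 1.75, 1.61, 3.25 and 2.98, a difference of -3.78 ± 0.71 (adjusted p = 0.003) that grew to -4.55 ± 0.65 without the array numbered 24. Ccl5 had 0.0927, 0.0988, 0.223 and 0.0919 against 0.423, 0.694, 0.964 and 0.78, and fell by 2.55 ± 0.35 on the log2 scale (adjusted p = 1.66e-04). In Ccl5 the array numbered 24 was the lowest of all 8.

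Among 13 tested cytokines, 2 rose and 5 fell, with a median of -0.64. Besides Ebi3, Il23a (the p19 subunit of IL-23) rose and was at least 1.7-fold higher (adjusted p = 0.00967), with no VOID array above background. Osm, which encodes oncostatin M, had 0.216, 0.169, 0.243 and 0.468 with both fragments and 0.859, 1.83, 2.65 and 1.9 in VOID. It fell by 2.72 ± 0.47 on the log2 scale (adjusted p = 0.00159). Lif, a cytokine of the same family and also on chromosome 11, fell by 2.11 ± 0.47 (adjusted p = 0.0104), Csf1, the macrophage growth factor, by 1.53 ± 0.39 (adjusted p = 0.0273), and Il16, a lymphocyte attractant, by 0.83 ± 0.21 (adjusted p = 0.027). Il4 was above background on no fragment array and at least 6.98-fold lower (adjusted p = 0.00907). Osm, Lif, Socs1, Cish and Il2ra are also the 5 genes that fell on a list of SOCS, Pim and STAT5-response genes, of which 18 were tested, none rose and the median was -0.45. Socs1, a feedback inhibitor of JAK kinases, had 1.43, 1.61, 1.48 and 1.53 against 6.09, 8.57, 9.68 and 7.29. All 4 fragment arrays lay within a narrow range and the change was -2.37 ± 0.35 (adjusted p = 3.26e-04), the same without the array numbered 24. Il2ra, the alpha chain of the IL-2 receptor, had 0.0331, 0.0332, 0.0629 and 1.8 against 18.1, 16, 8.75 and 25.8. Here the array numbered 24 was far above the others of its group yet below VOID, and the change was -7.24 ± 1.12 with it (adjusted p = 5.56e-04) and -8.60 ± 0.94 without it (adjusted p = 8.16e-06).

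Of 23 tested cytokine receptors, 2 rose (Il10rb, whose groups overlapped, and Ifngr2) and 6 fell. Beside Il2ra these were Il4ra, Il27ra, Tgfbr1 and the 2 common beta chains. Csf2rb, the shared signalling chain of the IL-3, IL-5 and GM-CSF receptors, had 22, 19.5, 30.8 and 35.5 against 47.6, 63.9, 56.3 and 63.6, and fell by 1.13 ± 0.21 on the log2 scale (adjusted p = 0.00236). Its close copy Csf2rb2, the beta chain of the mouse IL-3 receptor, fell by 1.28 ± 0.22 (adjusted p = 0.00145); the 2 genes are near-identical and their probes may share signal. The probes named for mouse Abl1 and Bcr were not called, at 0.28 ± 0.20 and 0.17 ± 0.19; whether they read the BCR-ABL fusion was not examined. On the list of BCR-ABL partners 1 of 18 tested genes was called, the myeloid tyrosine kinase Fes, with 0.191, 0.208, 0.232 and 0.976 against 6.33, 3.36, 3.57 and 3.94 and a change of -3.76 ± 0.51 (adjusted p = 1.68e-04).

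The largest rises among genes with a RefSeq symbol were in Podnl1, Ces2b, B3galt5, Pf4, Ppbp, Cpq, Syt16, Ces2c, Clec7a, Exoc3l4, Fam160a1 and 9130008F23Rik. Podnl1, a small leucine-rich proteoglycan of the extracellular matrix, had 0.92, 1, 1.08 and 1.59 with both fragments and 0.0631, 0.0527, 0.0317 and 0.0316 in VOID. It was highest on the array numbered 24 and rose by 4.72 ± 0.59 (adjusted p = 6.31e-05). The carboxylesterase genes Ces2b and Ces2c, both on chromosome 8, were likewise highest on the array numbered 24. Ces2b was at least 6.3-fold higher (adjusted p = 1.82e-04), since no VOID array was above background, and Ces2c rose by 3.04 ± 0.49 (adjusted p = 7.85e-04). Cpq, a secreted carboxypeptidase, was at least 5.92-fold higher, B3galt5, a galactosyltransferase, at least 5.53-fold, Exoc3l4 at least 4.96-fold, and Clec7a, the beta-glucan receptor Dectin-1, at least 2.5-fold. Syt16, a synaptotagmin, had 1.44, 1.56, 1.21 and 0.331 against 0.133, 0.112, 0.108 and 0.0913 (3.14 ± 0.52, adjusted p = 9.55e-04). Fam160a1 had 11.3, 8.65, 8.83 and 1.23 against 0.8 to 0.882 in VOID. For Syt16 and Fam160a1 the array numbered 24 stood apart from its group, toward VOID, and Fam160a1 differed by 2.78 ± 0.64 with it (adjusted p = 0.0143) and by 3.51 ± 0.56 without it.

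The largest falls were in F13a1, Il2ra, Fcer1a, Cpa3, Hbb-bs, Tph1, Ryk, Cd200r3, Padi4, Cma1, Hbb-b2 and Tespa1, and 4 of these 12 are mast cell genes. F13a1, the A chain of coagulation factor XIII, had 0.0137, 0.0144, 0.00802 and 0.362 with both fragments and 9.62, 10.8, 10.3 and 14.7 in VOID, a change of -8.67 ± 1.04 (adjusted p = 3.20e-05). It was above background on 1 fragment array, number 24; without that array it was at least 416-fold lower, and its other tested probe showed -4.53. Ryk, a Wnt receptor, Cd200r3 and Padi4, which converts arginine to citrulline in proteins, were likewise above background on 1 fragment array, and the other Padi4 probe showed -2.22. Of 12 tested mast cell and basophil markers 5 fell and none rose; the median was -2.68 with all arrays and -3.46 without the array numbered 24, when 7 fell. Fcer1a, the alpha chain of the high-affinity IgE receptor, had 0.00657, 0.00529, 0.0083 and 0.0184 against 0.615, 0.97, 1.07 and 0.903. No fragment array was above background, number 24 included, and the gene was at least 30.7-fold lower (adjusted p = 3.12e-06). Cpa3, the mast cell carboxypeptidase, had 0.0123, 0.0253, 0.00771 and 0.298 against 1.25, 3.32, 3.86 and 2.92, a change of -6.49 ± 1.03 (adjusted p = 7.08e-04). Tph1, which makes serotonin, had 0.0315, 0.0293, 0.0256 and 0.555 against 2.32, 3.59, 4 and 2.62 (-5.67 ± 1.09, adjusted p = 0.00363). Cma1, the chymase, had 0.165, 0.16, 0.126 and 3.52 against 5.65, 12.8, 17.8 and 11.9 (-5.08 ± 0.98, adjusted p = 0.00374). Cpa3 and Tph1 were above background on 2 of 4 fragment arrays each. In Cpa3, Tph1 and Cma1 the array numbered 24 lay between the other fragment arrays and VOID. The summed relative signal of the 21 mast cell markers on the array was 33.6 to 55.2 with both fragments and 59.7 to 85.3 in VOID, with Kit, Ms4a2, Hpgds, Mcpt2 and Mrgprb2 above background on none of the 8 arrays. In such bulk samples fewer cells of a type and less RNA per cell cannot be told apart.

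The promoters of Cpa3 and Fcer1a are shown because these were the 2 of 5 fallen mast cell genes with an entry that hold AGATAA, a motif of GATA factors, on either strand within 250 bases before the start.
Cpa3 promoter (chr3:20242182-20242431, minus strand): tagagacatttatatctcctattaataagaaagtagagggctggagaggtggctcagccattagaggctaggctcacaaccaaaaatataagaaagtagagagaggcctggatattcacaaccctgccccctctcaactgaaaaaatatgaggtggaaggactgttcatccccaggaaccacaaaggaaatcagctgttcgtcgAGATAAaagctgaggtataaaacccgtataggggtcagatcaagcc
Fcer1a promoter (chr1:173227230-173227479, minus strand): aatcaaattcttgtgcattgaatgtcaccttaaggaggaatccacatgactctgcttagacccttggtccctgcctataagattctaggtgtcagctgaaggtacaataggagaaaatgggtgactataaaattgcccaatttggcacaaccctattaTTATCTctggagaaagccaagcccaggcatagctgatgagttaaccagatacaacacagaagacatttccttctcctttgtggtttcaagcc
Capitals mark the match, 46 bases before the start in Cpa3 and 92 in Fcer1a. AGATAA was present in 9.99% of all promoter windows, and in 12.1% of genes called lower, 12.4% of genes called higher and 7.49% of genes not called.

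Of 8 tested haemoglobin genes 7 fell and none rose, and the median was -3.65. Hbb-bs had 0.0259, 0.0308, 0.0246 and 0.0732 against 2.41, 3.83, 3.77 and 1.91 (-6.37 ± 0.89, adjusted p = 2.17e-04), with 2 fragment arrays above background. Hbb-b2 had 0.581, 0.474, 0.603 and 1.06 against 12.2, 18.2, 24.5 and 13.8 (-4.68 ± 0.74, adjusted p = 6.45e-04). The embryonic gene Hbb-y had 0.0725, 0.0743, 0.0892 and 0.0588 against 0.957, 1.29, 1.01 and 0.687 (-3.72 ± 0.45, adjusted p = 3.70e-05). In each of these the array numbered 24 lay with its own group, far below VOID. Of the alpha chains, Hba-a1 fell by 1.69 ± 0.42 and Hba-a2 by 1.63 ± 0.37, and the adult beta genes, like the 2 alpha genes, are near-identical copies whose probes may share signal. The summed signal of the 10 globin genes on the array was 49.9 to 83.8 with both fragments and 173 to 376 in VOID. Klf1, the erythroid activator of the beta-globin locus, fell by 1.29 ± 0.24 (adjusted p = 0.00319). Of 19 erythroid and megakaryocyte markers, 4 rose and 2 fell: the platelet genes Pf4, Ppbp, Treml1 and Gp1ba rose, and Vwf, which encodes von Willebrand factor, was at least 4.12-fold lower (adjusted p = 7.48e-06).

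**Figure D2:**
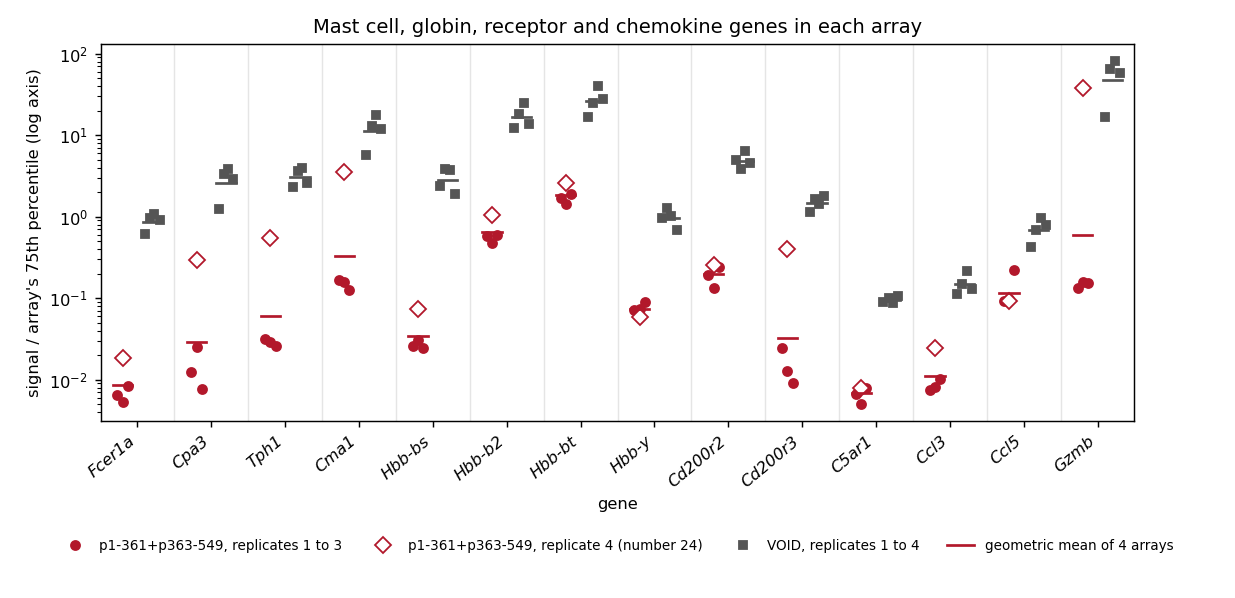
Relative signal (log axis) of 14 genes that fell, in each array; filled circles are p1-361+p363-549 replicates 1 to 3, open diamonds its replicate 4 (sample number 24), squares the 4 VOID arrays, and bars geometric means. The open diamond lies with the other fragment arrays for Hbb-bs, Hbb-b2, Hbb-bt, Hbb-y, Cd200r2, C5ar1 and Ccl5, between the groups for Cpa3, Tph1, Cma1 and Cd200r3, and within the VOID range for Gzmb (37.6 against 16.9 to 81).

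In the CD200 receptor family, immune receptors for the ligand CD200, 3 of 4 tested genes fell. Cd200r2 had 0.194, 0.134, 0.239 and 0.258 with both fragments and 4.98, 3.82, 6.32 and 4.54 in VOID. With 4 tight arrays on each side it had the lowest adjusted p among the named genes, with a change of -4.59 ± 0.25 (adjusted p = 2.38e-10). Cd200r3 changed by -5.50 ± 0.93 and Cd200r4 by -2.28 ± 0.36, while Cd200r1, the inhibitory receptor, differed by -0.64 ± 0.29 (adjusted p = 0.244). All 3 that fell lie on chromosome 16. Of 13 tested complement and chemoattractant receptors 7 fell and none rose, with a median of -1.04: C5ar1, C5ar2, C3ar1, Gpr183, Ccr7, Cxcr4 and Ltb4r1. C5ar1, the receptor of the anaphylatoxin C5a, had 0.0067, 0.00506, 0.008 and 0.00785 against 0.0906, 0.0996, 0.0878 and 0.106. It was above background on all VOID arrays and on none with both fragments, and at least 3.36-fold lower (adjusted p = 9.11e-08). With normexp background correction it was not called (adjusted p = 0.468), and its smallest change over all alternatives was -0.87. Gpr183, the oxysterol receptor that guides B cells and dendritic cells, was at least 3.69-fold lower (adjusted p = 2.19e-04). Cxcr4, the receptor of CXCL12, fell by 1.09 ± 0.22 (adjusted p = 0.00422), and Ccr7, the lymph node homing receptor, by 2.75 ± 0.67 (adjusted p = 0.0195). Of 18 adhesion genes, Itgb7 (-1.16 ± 0.18, adjusted p = 6.40e-04) and Selplg, the P-selectin ligand (-0.91 ± 0.18, adjusted p = 0.00377), fell and none rose.

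Of all genes tested 4.46% were called, and the apoptosis lists held few calls as well. Of 12 tested Bcl2 family genes 1 rose and 1 fell. Bcl2, the founding inhibitor of the mitochondrial pathway, had 0.741, 0.602, 0.747 and 5.04 with both fragments and 12.8, 13.9, 14.9 and 9.53 in VOID. On the log2 scale the array numbered 24 lay closer to VOID than to its group, and the change was -3.47 ± 0.82 with it (adjusted p = 0.0157) and -4.19 ± 0.80 without it (adjusted p = 0.0022). Bcl2a1d, a member of the A1 gene cluster with near-identical copies, rose by 1.27 ± 0.28 (adjusted p = 0.0104). Of 16 caspase and inflammasome genes Casp4, the sensor of intracellular lipopolysaccharide named caspase-11 in mice, alone was called. It had 11.7, 11.3, 11.4 and 8.37 against 4.69, 4.04, 5.47 and 3.93, with no overlap and a rise of 1.24 ± 0.16 (adjusted p = 1.11e-04).

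Calls among interferon-stimulated genes went both ways, while an unadjusted limma p under 0.05 was found for 14 higher and 3 lower. Of 29 tested, 3 rose and 3 fell, with a median of 0.65 that lay above the -0.01 of all genes; without the array numbered 24, 7 rose and 3 fell. Oas2, a sensor of double-stranded RNA, had 3.46, 3.03, 1.82 and 1.33 against 1.12, 0.569, 0.422 and 0.762 (1.74 ± 0.46, adjusted p = 0.0315). Mx2 rose by 1.55 ± 0.41 (adjusted p = 0.03) and Isg20, an exonuclease, by 1.55 ± 0.43 (adjusted p = 0.0408), although in both the array numbered 24 fell within the VOID range. The 3 that fell were of 1 family, Ifitm1, Ifitm2 and Ifitm3, membrane proteins that restrict viral entry. Ifitm1 had 14.8, 17.4, 15.1 and 80.1 against 120, 134, 147 and 149, and on the log2 scale the array numbered 24 differed from the VOID mean by -0.78, against -3.12 for the others. Its change was -2.54 ± 0.47 with that array (adjusted p = 0.00259) and -3.12 ± 0.39 without it. Guanylate-binding proteins split as well: Gbp3, Gbp7 and the related GTPase Irgm1 rose, and Gbp4 and Gbp9 fell, of 12 tested on that list. Pdcd1lg2, which encodes the checkpoint ligand PD-L2, had 6.35, 7.49, 3.01 and 2.36 against 1.63, 1.96, 1.4 and 2.25 and rose by 1.27 ± 0.35 (adjusted p = 0.0425), the single call among 12 checkpoint and costimulatory ligands. None of 20 genes of MHC class I presentation was called, and of 6 for class II the protease Ctss was at least 4.53-fold lower (adjusted p = 2.37e-04).

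Markers of further cell types were checked. Of 14 monocyte and macrophage markers 4 rose (Clec7a, Tlr2, Ly6c1 and Lyz2) and Ctss fell; their summed signal was 7.51 to 14.5 with both fragments and 13.4 to 19.8 in VOID. Tlr2 was also the single call among 12 Toll-like receptor genes, at 0.90 ± 0.22 (adjusted p = 0.0206). Lyz2, at least 1.63-fold higher with all arrays (adjusted p = 0.0398), lost its call without the array numbered 24 (adjusted p = 0.101). Of 9 T and NK cell markers Gzmb, Cd3d and Lat fell, with summed signals of 7.73 to 48.2 and 32.5 to 97.4, while Zap70, Cd8a, Cd2, Ncr1 and 7 further markers were above background on none of the 8 arrays. Gzmb, the protease granzyme B, had 0.135, 0.158, 0.155 and 37.6 with both fragments and 16.9, 64.8, 81 and 58.7 in VOID. Replicates 1 to 3 differed from VOID by -8.33 ± 1.37 (adjusted p = 5.56e-04) and the array numbered 24 lay inside the VOID range, which left -6.33 ± 1.63 with all arrays (adjusted p = 0.0275). Of 4 tested eosinophil markers Epx was called lower (adjusted p = 0.018), and of 6 dendritic cell markers Ccr7. Epx had 0.0297, 0.00491, 0.00788 and 0.438 with both fragments and 0.384, 0.354, 0.236 and 0.418 in VOID. It was above background on 1 fragment array, number 24, which lay above every VOID array, and without that array it was at least 12.2-fold lower (adjusted p = 1.33e-05). The part of other cell types in these results was not tested.

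Of 21 tested transcription factors of blood cells 2 fell, Id2, an inhibitor of E proteins (-2.21 ± 0.43, adjusted p = 0.00374), and Cebpb, a myeloid activator (-0.93 ± 0.24, adjusted p = 0.0271). In cholesterol metabolism, the efflux transporters Abcg1 (-3.39 ± 0.48, adjusted p = 2.47e-04) and Abca1 (-1.46 ± 0.33, adjusted p = 0.0133) fell and the isoprenoid enzyme Idi1 rose by 1.49 ± 0.42 (adjusted p = 0.0461), with overlapping groups, out of 27 tested. Abcg1 had 0.225, 0.213, 0.333 and 0.767 against 2.52, 3.24, 4.97 and 3.64, so all fragment arrays lay below VOID. Single genes were called among 20 p53 targets (Btg2, lower), 30 genes of G2 and mitosis (Cdc25c, higher) and 37 of oxidative phosphorylation (Ndufs8, higher). Of all genes tested, 4.46% were called. In G2 and mitosis the median change was 0.41, and 15 of the 30 had an unadjusted limma p under 0.05, all higher. For p53 targets these were 5, all lower, and for oxidative phosphorylation 9, of which 8 were higher. On 12 of the 43 lists limma called no gene: IKK, TRAF and receptor-proximal signalling, IAP and death receptors, ERK feedback, immediate early genes, MHC class I, neutrophil, B cell, and fibroblast and endothelial markers, hypoxia and glycolysis, the unfolded protein response, heat shock chaperones and DNA replication. They hold 212 tested entries, of which 29 had an unadjusted p under 0.05, against 2785 of all 14991 genes.

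**Figure D3:**
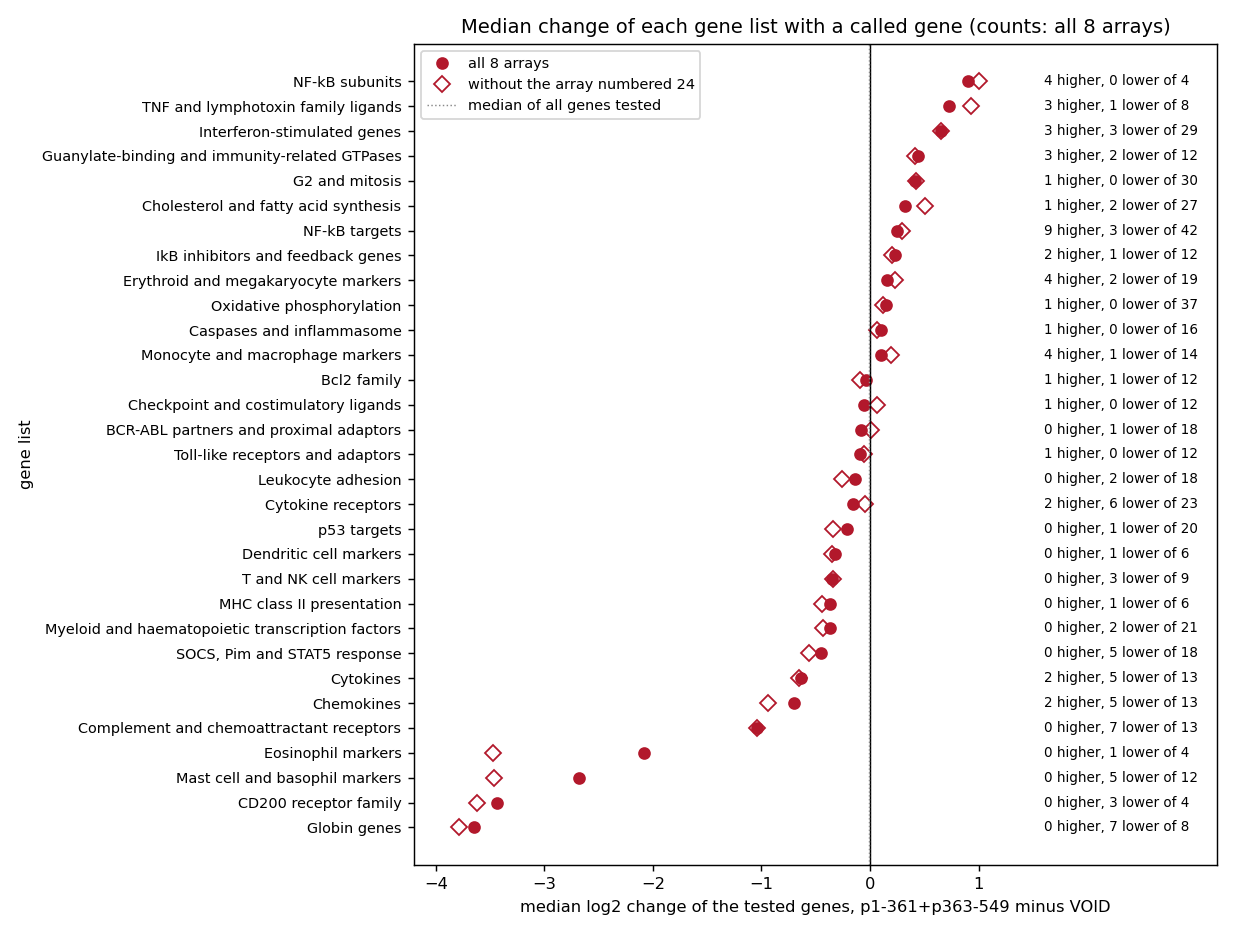
Median log2 change (p1-361+p363-549 minus VOID) over the tested genes of each list with at least 1 called gene, with all 8 arrays (filled) and without the array numbered 24 (open); the text at the right gives the counts called higher and lower with all arrays. NF-kB subunits lie highest (0.90) and globin genes lowest (-3.65), and mast cell and eosinophil markers move furthest when the array is left out.

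Of the 1054 genes called without it, it lay on the same side of the VOID mean as the others for 862 (81.8%), reached at least 50% of their change for 372 (35.3%), and its median change was 0.36 of theirs. The share on the same side was 83.0% among rises and 80.8% among falls. Both differences use the same VOID arrays, and the genes were chosen for a difference from them, so these shares describe the array and test nothing. It was outside the range of the VOID arrays, on the same side as replicates 1 to 3, for 645 genes. Genes in which it was close to its group included Cd200r2, C5ar1, Podnl1, Socs1, Rela, Hbb-bs, Hbb-b2, Hbb-bt and Hbb-y. In log2 relative signal, p1-361 averaged near p1-361+p363-549 for C5ar1 (-6.89 and -7.20), Podnl1 (0.11 and 0.17) and Rela (4.81 and 4.85). The p1-361 mean was higher for Cd200r2 (-1.27 and -2.32), Socs1 (1.68 and 0.59), Hbb-bs (-2.36 and -4.85) and Hbb-b2 (1.51 and -0.63). Hbb-bt (3.00 and 0.89) and Hbb-y (-3.13 and -3.78) were higher with p1-361 too. For Hbb-bh1, another beta-globin gene, the array numbered 24 differed from the VOID mean by -1.35, against -4.33 for the other arrays. Genes called only without it included Mylk, a myosin kinase, with 0.887, 0.868, 0.482 and 0.0266 against 0.0426, 0.0628, 0.0487 and 0.0657 in VOID, where the array numbered 24 was the lowest of all 8. Mylk differed by 3.73 ± 0.43 without it (adjusted p = 1.73e-05) and by 2.54 ± 0.75 with it (adjusted p = 0.0557); its other tested probe showed 0.03. Fcer1g, the shared gamma chain of Fc receptors, had 0.0579, 0.048, 0.0969 and 12.6 against 1.2, 1.87, 1.74 and 1.71, so that 3 arrays were below VOID and the fourth above it. Gzmc, granzyme C, had 0.0667, 0.083, 0.101 and 42.2 against 4.08, 7.22, 13.7 and 12.1, with the same arrangement. Without the array numbered 24 Fcer1g changed by -4.64 ± 0.77 (adjusted p = 5.82e-04) and Gzmc by -6.67 ± 1.36 (adjusted p = 0.0036); with it neither was called. Rufy4, Add2, Bcar1 and 3930402G23Rik among rises and Tnni1, Itln1 and Stfa1 among falls were likewise called only without it.

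**Figure D4:**
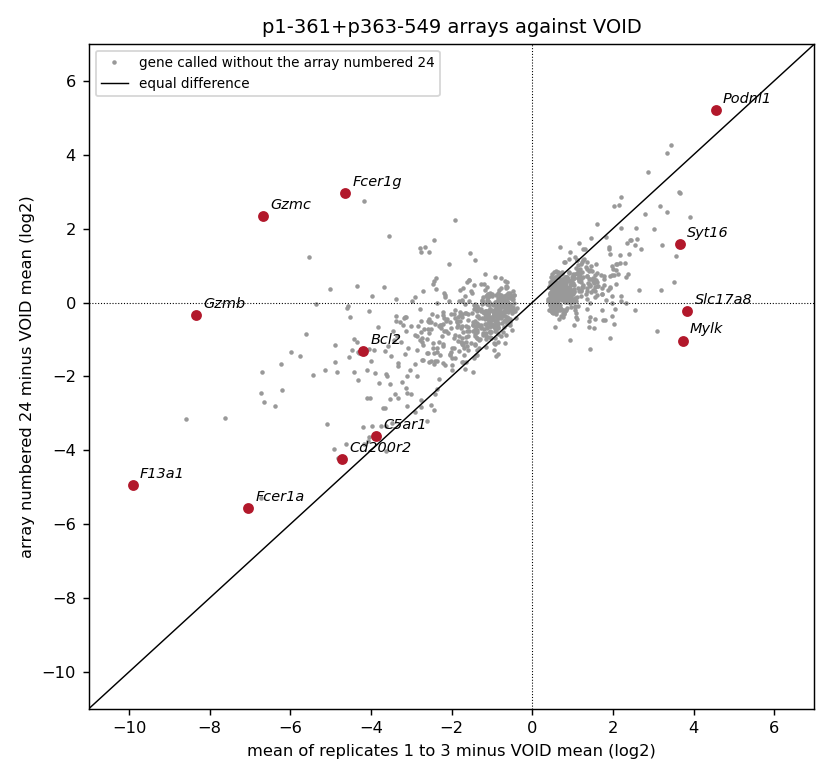
For the 1054 genes called without the array numbered 24, log2 difference from the VOID mean of replicates 1 to 3 (x axis, mean) and of the array numbered 24 (y axis); each point is a gene and the line marks equal differences. The median ratio of the y to the x value is 0.36, and Gzmc and Fcer1g lie on the opposite side of 0 from the other arrays.

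Against single fragments, the group with both fragments gave no call in limma's fit of 1 mean a group to all arrays: 0 genes against p1-361, with 2905 at an unadjusted p under 0.05, and 0 against p363-549, with 2771. The counts depended on the model: with sets of consecutive sample numbers as a block they were 2374 and 2099, and with array weights 7535 and 7375. In the first fit without the array numbered 24 the counts were 920 (6.14%) and 465 (3.10%), and without the arrays numbered 22, 23 and 24 they were 1751 (11.7%) and 2283 (15.2%). Without the 3 arrays, Relb was higher with both fragments than with p1-361 by 1.51 (adjusted p = 1.71e-04) and than with p363-549 by 1.62 (adjusted p = 5.68e-05), and Nfkb2 by 1.01 (adjusted p = 0.00247) and 0.93 (adjusted p = 0.00407). Under the same choice Gzmb differed by -7.62 from p1-361 and by -8.59 from p363-549 (adjusted p = 3.99e-08 and 7.28e-09), and Cpa3 by -5.25 and -6.33 (adjusted p = 1.24e-07 and 8.89e-09). Cpa3 was above background on 2 of all 4 p1-361+p363-549 arrays, and the brightest, number 24, is left out here. The size of its differences therefore rests mostly on undetected signal. Rela was not called, at 0.08 (adjusted p = 0.652) and 0.04 (adjusted p = 0.856), nor was Casp4, at 0.10 (adjusted p = 0.725) and 0.05 (adjusted p = 0.876). These comparisons rest on 3 arrays a group. The arrays left out were picked for resembling another fragment group on these same values. Leaving them out can itself set the groups apart, so these counts and p-values are no separate test.

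Against WT, 154 genes (1.03%) were called with all arrays, 16 higher (0.107%) and 138 lower (0.921%) with both fragments, 489 (3.26%) without the array numbered 24 and 831 (5.54%) without the 3 arrays. Rela stood at 4.85 ± 0.07 with both fragments, 4.81 ± 0.06 with p1-361, 4.87 ± 0.09 with p363-549, 4.78 ± 0.08 in WT, 4.74 ± 0.12 in D361E and 4.38 ± 0.11 in VOID (log2 relative signal, mean ± SD, n = 4 each), so the 5 groups given p65 or its fragments lay together above VOID. Tnfaip3 stood at -1.70 ± 0.43 with both fragments, -0.28 ± 0.14 in WT, -0.83 ± 0.34 in D361E and -2.62 ± 0.42 in VOID on the same scale. It was lower with both fragments than in WT by 1.41 (log2 difference -1.41, adjusted p = 0.013), while Nfkbia, at 3.94 ± 0.35 against 5.03 ± 0.14 in WT, differed by -1.09 (adjusted p = 0.0835). Itih3, a hyaluronan-binding serum protein gene, stood at -5.60 ± 1.13 with both fragments, -0.30 ± 0.19 in WT and -2.19 ± 0.21 in VOID, and was called lower than in WT (adjusted p = 7.77e-07). It was above background on 1 of the 4 fragment arrays, so the size of that difference is not given. B3gnt5, a lactosylceramide glycosyltransferase, stood at -2.06 ± 0.61 with both fragments, -5.08 ± 0.43 in WT and -4.18 ± 0.65 in VOID (SD, n = 4 each), higher than in WT by 3.03 (adjusted p = 1.55e-04). Cpa3, Tph1 and Saa3, an acute-phase protein gene, differed from WT by -6.25, -4.90 and -6.23 (adjusted p = 0.00411, 0.031 and 0.016), whereas Hbb-b2, at -0.63 ± 0.50 with both fragments and -1.86 ± 0.28 in WT, differed by 1.23 and was not called (adjusted p = 0.482). Cpa3 and Tph1 were above background on 2 of the 4 fragment arrays each, so the sizes of their differences rest partly on undetected signal. Cenpp, a centromere protein gene, and Slc17a8, a vesicular glutamate transporter gene, were higher than in WT by 1.91 (adjusted p = 0.0246) and 3.36 (adjusted p = 0.0382); for Slc17a8 the fragment arrays read 0.805, 0.827, 0.722 and 0.0464 in relative signal, and the array numbered 24 was at the VOID level.

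**Figure D5:**
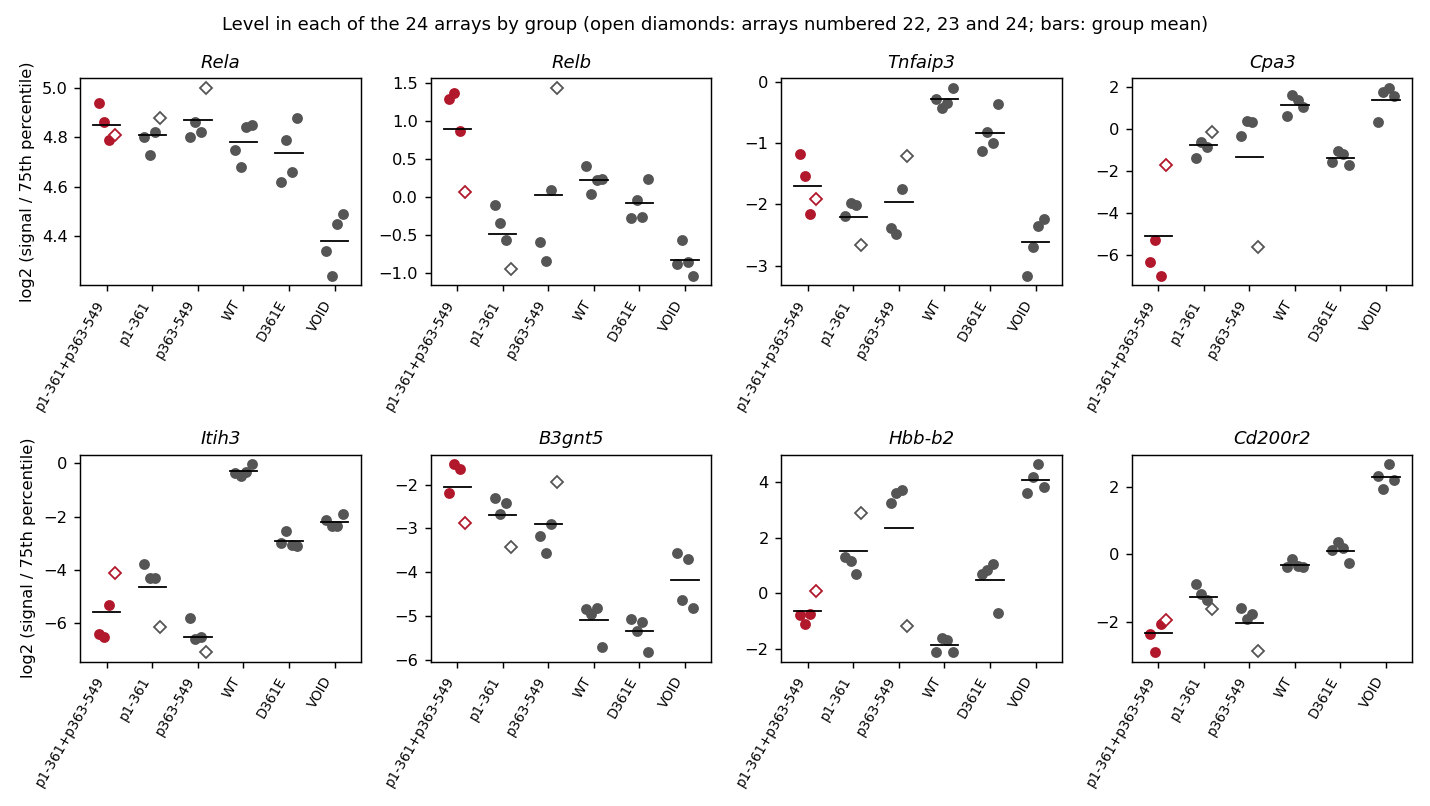
Log2 relative signal of 8 genes in all 24 arrays by transfection; bars are group means and open diamonds the arrays numbered 22, 23 and 24. Rela is higher in the 5 groups given p65 or its fragments than in VOID, Tnfaip3 is highest in WT, and for Cpa3 the open diamond under p363-549 lies at the level of the p1-361+p363-549 arrays.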

How the data were processed

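RNA of 24 DA1-3B samples was hybridised to 1-colour Agilent mouse arrays, 1 array a sample and 4 a group. The deposited values are spot intensities from Agilent Feature Extraction 10.7.3.1, per the file headers, background-subtracted and detrended on a linear scale by the authors' scanner software; the deposited series table holds the same intensities (largest difference 0). Above-background and outlier flags, another kind of value in the deposited files, were used to filter. Each intensity was divided by its array's 75th percentile over non-control probes and taken as log2, with no floor. Spots flagged as outliers (230 to 383 an array) were left out, spots of a probe averaged, and a probe was kept if every array of some group had it well above background, giving 19523 probes; the probe of highest mean stood for each of 14991 genes. limma 3.58.1 (R 4.3.3) was fitted to all 24 arrays with 1 mean a group, 2-sided, with Benjamini-Hochberg adjustment over all genes. The script was tested on simulated data.

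Gene names are the files' own, matched to RefSeq where possible; 68 called genes had no symbol there and were not named. Named genes were Rela, Abl1 and Bcr; all tested NF-kB subunits, IkB inhibitors and feedback genes; the 12 largest rises and falls without overlap whose brighter group was above background on 4 arrays; up to 4 called members of each list by size; the 5 largest each way among genes called only without the array numbered 24; and the 4 largest each way in the other comparisons. Other list members named in the text were added after their values were seen. Members and lists were chosen with earlier results of these data known. Replicate numbers follow accession order. Promoters were the 250 bases before each RefSeq start.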

Additional observations from a re-analysis of the deposited data

Results flagged for a closer look

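Of 226 groups of 4 arrays examined among the named genes, 29 held an array whose gap to the nearest other exceeded Dixon's critical value for 4 values, where chance gives about 1 in 20. The array numbered 24, replicate 4 of p1-361+p363-549, accounted for 22 of them and VOID arrays for 3; some of the named genes were chosen because their call appeared only without that array, so its count is not comparable with chance. That array was high, in relative signal, for F13a1 (0.362), Il2ra (1.8), Tph1 (0.555), Cma1 (3.52), Bcl2 (5.04), Fes (0.976), Ifitm1 (80.1) and Lyz2 (0.106). It was also high for Gzmb (37.6), Gzmc (42.2), Cd3d (2.94), Tnni1 (0.741), Fcer1g (12.6) and Itln1 (1.39). It was low for Syt16 (0.331), Fam160a1 (1.23), Lta (0.0445), Tlr2 (0.374), Casp4 (8.37), Idi1 (3.98), Rufy4 (0.053) and Slc17a8 (0.0464). Other p1-361+p363-549 arrays stood apart for B3galt5 (replicate 3, low, 0.0745), Ccl5 (replicate 3, high, 0.223), Lat (replicate 3, high, 5.37) and Cdc25c (replicate 2, high, 0.682). VOID arrays stood apart for Cyld (replicate 3, high, 1.62), N4bp1 (replicate 2, high, 0.316) and Idi1 (replicate 3, high, 7.19). The cause was not tested.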

How the results depend on the processing

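No paired analysis was possible because the replicate numbers follow accession order; a block for sets of consecutive sample numbers was run instead. Against VOID, where 668 genes were called, the count was 213 with normexp, 435 without a filter on dim probes, 408 when slide was a block, 2420 when the sets were, 293 with only the arrays of both groups, 5326 with array weights, 1438 without the 3 arrays numbered 22 to 24, 320 with brightness as a covariate and 301 to 1054 on leaving out 1 array (301 without p1-361+p363-549 replicate 2, 328 without replicate 1, 1054 without replicate 4; 435, 431 and 439 without VOID replicates 2, 3 and 4). Array weights ran from 0.258 to 8.98, both on p1-361+p363-549 arrays. The share of rises among calls was 43.9%, but 35.8% with the percentile over detected probes, 33.1% without the filter (which also moved the median of all genes to -0.20), 32.4% with normexp, 32.1% with slide as a block, 33.4% with only both groups and 55.1% with the sets. Against p1-361 (0 called) the count was 2374 with the sets, 7535 with weights, 1751 without the 3 arrays, 360 with only both groups without the array numbered 24 and 0 to 920 on leaving out 1 array. Against p363-549 (0 called) it was 2099, 7375 and 2283 under the first 3 of these and 0 to 1654 on leaving out 1 array. Against WT (154 called) it was 24 with normexp, 63 without the filter, 82 with probes above background on all 24 arrays, 31 with slide, 1103 with the sets, 52 with only both groups (389 without the array numbered 24), 8000 with weights, 831 without the 3 arrays, 75 with brightness and 33 to 489 on leaving out 1 array. The cause was not tested. Of 92 named genes called, 35 were called under every alternative that tested them (21 under 25 and 14 under 24), 30 were lost on leaving out some single array, 27 only under other alternatives, and none changed sign. Normexp took away 37 of the 92 calls and brightness as a covariate 38. The changes of sign were in genes not called: Nfkbib -0.03 and Otulin -0.22 with brightness, Cyld 0.16 and Tnip2 0.42 with it too, and Tnip2 0.00 with slide, 0.06 with weights and 0.01 without the 3 arrays and with only both groups without the array numbered 24. On leaving out 1 array, Nfkbiz ran from -0.01 to 0.31, Nfkbid from -0.24 to 0.10, Tnip2 from -0.14 to 0.18 and Cyld from -0.31 to 0.05. The number of arrays limits precision.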
